A study of Mus musculus with 2 samples.

Results

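The enzymes and regulators of arginine, polyamine and itaconate metabolism were examined in single cells of injured mouse quadriceps. The 10 genes were chosen by symbol: *Slc7a2*, *Ass1*, *Arg1*, *Arg2*, *Nos2*, *Odc1*, *Srm*, *Sat1*, *Azin1* and *Acod1*. They are 10 of the 32285 genes listed in the count tables, of which 21718 had a UMI in the cells analysed, and all 10 were among these. A UMI, or unique molecular identifier, marks 1 captured transcript.

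The libraries held mononuclear cells of the quadriceps of wild-type (WT) C57BL/6J male mice of 14 weeks, taken 1 or 3 days after intramuscular injection of 1.2% BaCl2, a salt that kills myofibers and is followed by inflammation and regeneration. Each time point had 1 library, made from thawed cells pooled from 5 mice, and no uninjured muscle was analysed here. There were therefore no replicates, no test and no p-value, and all differences between days are differences between 2 libraries. The list of possible barcodes also differed between the libraries, so that the day and the handling of the library cannot be told apart.

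Arginine lies at a branch point of macrophage metabolism. Nitric oxide synthase converts it to nitric oxide and citrulline, whereas arginase splits it to urea and ornithine, and ornithine decarboxylase feeds ornithine into the polyamines putrescine, spermidine and spermine, which growing cells need. Itaconate is made from the citrate cycle intermediate cis-aconitate by the product of *Acod1*, is induced by inflammatory stimuli in myeloid cells, and inhibits succinate dehydrogenase.

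In total 74852240 UMIs were counted on day 1 and 102565783 on day 3. After filters on depth, genes and mitochondrial UMIs, 6735 cells of day 1 and 4627 of day 3 remained, with medians of 9389 and 14548 UMIs. None of the barcodes taken as cells was shared between the libraries (0 of the 77142 barcodes listed in both). Clusters were named from marker genes, and neither the 10 genes nor the markers were used for clustering. Monocyte/macrophage-like cells numbered 3496 on day 1 (51.9%) and 2819 on day 3 (60.9%), and all 11 of their markers were detected in each of their clusters. Different clusters held most of them on each day: those led by *Serpinb2*, *Ppbp* and *Gm9733* on day 1 and those led by *Fcrls*, *Gpnmb*, *Ifitm6*, *Rad51ap1* and *Ifit1bl1* on day 3. Neutrophil-like cells numbered 2076 and 259, fibroblast- or fibro-adipogenic progenitor (FAP)-like cells 643 and 820, and satellite cell/myoblast-like cells 6 and 202. The fibroblast/FAP-like cells of day 1 were nearly all in a cluster led by *Il1rl1* (632 cells), and those of day 3 in another led by *Sfrp2* (813 cells). The dendritic cell-like cluster (421 and 433 cells) was led by major histocompatibility complex class II genes, and its name rests on 3 detected markers of 10. Of these markers 0 were among its 10 leading genes, and the monocyte/macrophage list scored 0.82 beside 0.95 for the dendritic cell list. A cluster led by *Gpihbp1* (93 and 94 cells) was left unnamed.

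Levels are given in CPM, the UMIs of a gene in a group of cells per 1000000 UMIs of all genes in that group. Parentheses hold 95% confidence intervals (CI), exact Poisson for CPM, exact binomial for ratios and Clopper-Pearson for shares. They hold the error of counting alone, and nothing of the spread among mice or between libraries. Since 1 UMI is 1 transcript read at its 3-prime end, CPM can be compared between genes without a correction for length.

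**Figure D1:**
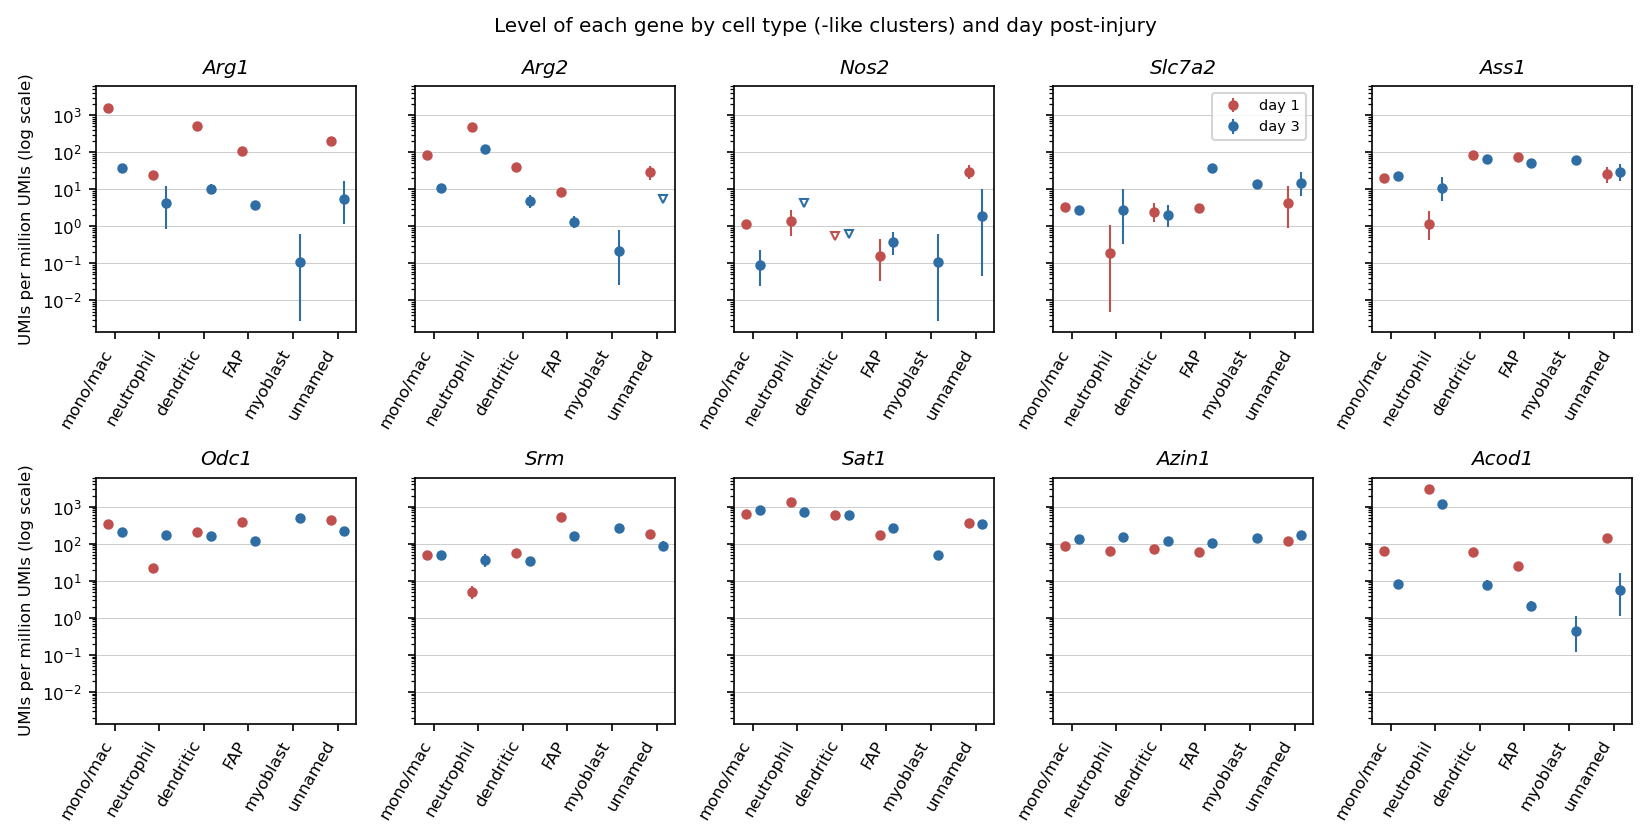
Level of each gene in CPM (log scale) by cell type and day, with exact Poisson 95% CI; open triangles mark groups with 0 UMIs, drawn at the limit that a count of 0 allows, and the 6 myoblast-like cells of day 1 are not shown. *Arg1* and *Acod1* cover the widest range, with *Arg1* highest in monocyte/macrophage-like and *Acod1* in neutrophil-like cells of day 1, whereas *Azin1* stays between 60.2 and 168 CPM.

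Arginine enters the cell and is rebuilt from citrulline by the products of *Slc7a2* and *Ass1*. *Slc7a2* (chr8:40862396-40922308, + strand, GENCODE annotation of build GRCm38) encodes a cationic amino acid transporter of the plasma membrane. Its level in monocyte/macrophage-like cells was 3.30 CPM (2.77 to 3.91) on day 1 and 2.73 CPM (2.27 to 3.26) on day 3, and the intervals overlapped. In fibroblast/FAP-like cells it was 3.03 CPM (2.29 to 3.92) on day 1 and 37.2 CPM (34.8 to 39.7) on day 3, or 12.2-fold higher. At 3000 UMIs per cell, 1.09% of the fibroblast/FAP-like cells of day 1 and 10.99% of those of day 3 had a UMI of it. On day 1 monocyte/macrophage-like cells held 64.0% of all *Slc7a2* UMIs, near their 57.5% of the UMIs of all genes. Fibroblast/FAP-like cells held 27.0% on day 1, beside 26.5% of the UMIs of all genes, and 77.2% on day 3, beside 28.7%. In the myoblast-like cells of day 3 the level was between those of these 2 types, at 13.6 CPM (11.3 to 16.3).

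*Ass1* (chr2:31470207-31520672, + strand) encodes argininosuccinate synthase, which takes citrulline back towards arginine. Its level was within 2-fold between days in the 3 cell types that had at least 50 cells on each day and at least 50 UMIs of it. It was 19.6 CPM (18.3 to 21.0) and 22.4 CPM (21.0 to 23.8) in monocyte/macrophage-like cells, 82.0 and 67.1 CPM in dendritic cell-like cells, and 72.3 and 49.96 CPM in fibroblast/FAP-like cells. In the dendritic cell-like cluster it was thus above its monocyte/macrophage level on both days, and the intervals did not overlap. With cells of fewer than 200 genes per 1000 UMIs left out, the levels in fibroblast/FAP-like cells were 41.9 and 29.0 CPM. The 202 myoblast-like cells of day 3 had 61.6 CPM (56.6 to 66.9), and no comparison was made with the 6 such cells of day 1.

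*Arg1* (chr10:24915221-24927484, - strand) and *Arg2* (chr12:79130777-79156301, + strand) encode the cytosolic and the mitochondrial arginase. Of the 10 genes, *Arg1* differed the most between the days in monocyte/macrophage-like cells. Its level in monocyte/macrophage-like cells was 1607 CPM (1595 to 1619) on day 1 and 37.0 CPM (35.2 to 38.8) on day 3, or 43.4-fold lower, with a log2 ratio of -5.44 (-5.51 to -5.37). Of all genes tested in these cells, 0.0688% had a lower ratio. At 3000 UMIs per cell, a UMI of *Arg1* was found in 58.1% of the cells of day 1 (56.4 to 59.8) and 5.80% of those of day 3 (4.96 to 6.74), against 68.7% and 15.5% without thinning. In fibroblast/FAP-like cells, with 27890 UMIs in the median cell of day 1 against 11164 in the monocyte/macrophage-like cells, the thinned share on day 1 was 7.79%. Barcodes with at most 100 UMIs, which hold free RNA, had 716 CPM of *Arg1* on day 1 and 12.3 CPM on day 3.

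The *Arg1* transcripts were spread unevenly over the monocyte/macrophage-like cells. On day 1 the median cell had 5 UMIs of *Arg1* and the highest had 247, and the 350 cells with the most held 49.1% of them. On day 3 the median cell had 0 and the highest had 47, and the top 282 cells held 90.6%. Among the clusters of day 1, *Arg1* was highest in the *Serpinb2*-led cluster at 2007 CPM and the *Ppbp*-led cluster at 1803 CPM, intermediate in the *Gm9733*-led (789 CPM) and *Fcrls*-led (506 CPM) clusters, and lowest in the *Ifitm6*-led cluster at 56.3 CPM. The clusters led by *Ifitm6*, with *Plac8* and *Ly6c2* among its leading genes, and by *Fcrls* had at least 50 cells on each day. In each of them *Arg1* was lower on day 3, at 35.4 CPM in the *Fcrls*-led cluster (log2 ratio -3.84) and 4.35 CPM in the *Ifitm6*-led cluster (log2 ratio -3.65).

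*Arg1* was lower on day 3 in the other cell types as well. It was 513 and 10.2 CPM in dendritic cell-like cells, 106 and 3.68 CPM in fibroblast/FAP-like cells, and 24.0 and 4.16 CPM in neutrophil-like cells, where day 3 rests on 3 UMIs. These groups also held monocyte/macrophage markers. In fibroblast/FAP-like cells of day 1 *Arg1* was at 6.58% of its monocyte/macrophage level, beside 7.92% for the sum of the 11 monocyte/macrophage markers and 7.05% to 9.80% for each of them. In dendritic cell-like cells of day 1 the corresponding values were 31.9% for *Arg1* and 45.4% for the marker sum. Single markers there were at 21.1% (*Pf4*) to 98.2% (*C1qb*), with a median of 67.2%. The part of these markers in the result was not tested. With cells of fewer than 200 genes per 1000 UMIs left out, the *Arg1* level of fibroblast/FAP-like cells of day 1 was 11.5 CPM, and the log2 ratio was highest (-2.92) with the cells of highest doublet scores left out. The levels of day 1 also depended on how the other types were formed. Log-normalized counts before clustering gave 69.2 CPM of *Arg1* in dendritic cell-like cells, and naming each cell by its highest marker score gave 364 CPM in neutrophil-like cells. Monocyte/macrophage-like cells held 92.9% of all *Arg1* UMIs on day 1 and 91.8% on day 3.

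**Figure D2:**
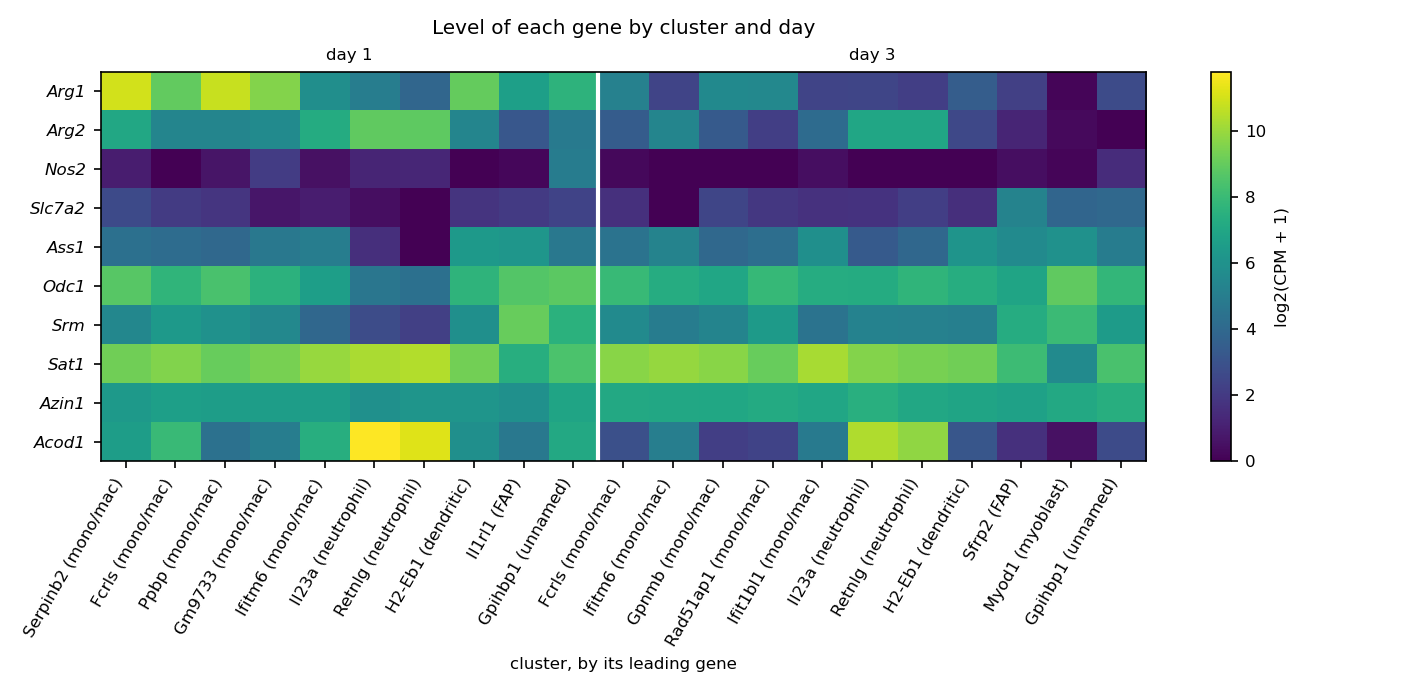
Level of each gene as log2(CPM + 1), by color, in each cluster with at least 50 cells on that day; columns are clusters by leading gene and cell type, day 1 left of the white line and day 3 right of it. The highest cells of the map are *Acod1* in both neutrophil-like clusters and *Arg1* in the *Serpinb2*-led and *Ppbp*-led clusters of day 1, and *Arg1* reaches at most 47.5 CPM on day 3.

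*Arg2* was distributed differently from *Arg1*. Its highest level was in neutrophil-like cells, at 474 CPM (455 to 493) on day 1 and 126 CPM (102 to 155) on day 3. Monocyte/macrophage-like cells came second at 85.7 CPM (82.9 to 88.6) and 11.2 CPM (10.2 to 12.2), or 7.68-fold lower on day 3. On day 1, 55.4% of the *Arg2* UMIs were counted in monocyte/macrophage-like and 38.4% in neutrophil-like cells, which held 57.5% and 7.21% of all UMIs. *Arg2* in monocyte/macrophage-like cells of day 1 was at 18.1% of its neutrophil level, beside 2.16% for the sum of the 10 neutrophil markers and 1.03% (*Ly6g*) to 11.4% (*Mxd1*) for each of them. On day 3 it was at 8.84%, beside 1.76% for the sum and up to 13.6% (*Mxd1*) for a single marker. In the neutrophil-like cells themselves the sum of these markers was also lower on day 3, at 91235 and 28497 CPM, and its part in the difference of *Arg2* was not tested. Within the monocyte/macrophage-like cells *Arg2* was highest in the *Ifitm6*-led cluster on both days, at 154 and 40.7 CPM, and in that cluster *Arg1* was at its lowest. On day 3, however, *Arg1* was nearly equal in the *Ifitm6*-led (4.35 CPM) and *Ifit1bl1*-led clusters (4.36 CPM), and *Arg2* was 16.3 CPM in the latter. Like *Arg1*, *Arg2* was lower on day 3 in dendritic cell-like (40.9 and 4.82 CPM) and fibroblast/FAP-like cells (8.34 and 1.32 CPM). On day 1 these levels were 13.6 CPM in dendritic cell-like cells when counts were log-normalized before clustering, and 0.99 CPM in fibroblast/FAP-like cells when cells of fewer than 200 genes per 1000 UMIs were left out.

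*Nos2* (chr11:78920787-78960254, + strand) encodes the inducible nitric oxide synthase, the enzyme that competes with arginase for arginine in macrophages stimulated by bacterial products and interferon. It was close to the limit of detection. Over all cells there were 77 UMIs on day 1, in 43 of 6735 cells or 0.639% (0.462 to 0.859), and 15 UMIs on day 3, in 7 of 4627 cells or 0.151% (0.0608 to 0.311). The monocyte/macrophage-like cells held 46 UMIs, which gave 1.12 CPM (0.824 to 1.5) on day 1, and 4 UMIs, which gave 0.0896 CPM (0.0244 to 0.229) on day 3. *Arg1* had 65716 and 1651 UMIs in the same cells. The most *Nos2* UMIs in 1 cell were 8 on each day, and on day 3 those 8 were more than all the other *Nos2* UMIs of that day together. The level was highest in the unnamed *Gpihbp1*-led cluster of day 1, at 29.8 CPM (18.5 to 45.6), where 21 UMIs lay in 15 of 93 cells. *Cldn5*, *Cdh5* and *Pecam1*, which are endothelial genes, were among the leading genes of that cluster, and all 21 UMIs were in the 59 cells that scored highest for endothelial markers. No UMI was found in the dendritic cell-like cells of either day, which allows up to 0.558 and 0.603 CPM.

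*Odc1*, *Srm*, *Sat1* and *Azin1* act on polyamines. *Odc1* (chr12:17544794-17551505, + strand) encodes ornithine decarboxylase, the rate-limiting enzyme of their synthesis, and *Srm* (chr4:148591503-148594993, + strand) encodes spermidine synthase, which makes spermidine from putrescine. The 150 bases before the GENCODE start of *Odc1* are printed beside those of *Acod1*, since the first of these genes was found in all cell types and the second mainly in one. They were read from RefSeq sequences of mouse build GRCm38.p6 and are written 5-prime to 3-prime on the strand of the gene. The *Odc1* sequence lies at chr12:17544644-17544793 (+) and the *Acod1* sequence at chr14:103046827-103046976 (+).
Odc1: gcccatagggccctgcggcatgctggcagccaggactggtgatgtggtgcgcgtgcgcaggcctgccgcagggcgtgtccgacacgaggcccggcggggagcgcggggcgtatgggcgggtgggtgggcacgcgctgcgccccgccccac
Acod1: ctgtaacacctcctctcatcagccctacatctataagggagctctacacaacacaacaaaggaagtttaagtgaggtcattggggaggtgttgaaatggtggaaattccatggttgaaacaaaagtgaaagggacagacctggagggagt
The *Odc1* sequence had 77.3% G or C and the *Acod1* sequence 45.3%, and none of 4 motifs searched on both strands was found in either, so that no letters are in capitals. The motifs were the core of a TATA box (TATAAA), an E-box (CACGTG), an AP-1 motif (TGANTCA) and a C/EBP motif (TTGCNNAA). Of 32851 RefSeq promoters of the same length, placed before the RefSeq start, they were found in 7.57%, 4.30%, 4.24% and 5.46%. RefSeq places the start of *Odc1* 79 bases, that of *Ass1* 63 bases and that of *Acod1* 35 bases downstream of the GENCODE start. In the 150 bases before the RefSeq starts, TATAAA was found 28 bases before that of *Acod1* and CACGTG 36 bases before that of *Ass1*, and both lie after the GENCODE start of the gene. The sequence table held 4 of the 10 genes, and *Sat1*, with the same start in both annotations, held none of the 4 motifs. A match is a run of letters and not evidence of binding.

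In monocyte/macrophage-like cells *Odc1* was at 332 CPM (327 to 338) on day 1 and 203 CPM (199 to 207) on day 3, a log2 ratio of -0.71 (-0.75 to -0.67). The difference was not found within the *Fcrls*-led and *Ifitm6*-led clusters, which had 73 and 216 cells on day 1. The other clusters, such as the *Serpinb2*-led with 1429 and 11 cells, had fewer than 50 cells on 1 day and were not compared. *Odc1* was 211 and 246 CPM in the *Fcrls*-led cluster, where the interval of the ratio included 0, and 98.2 and 158 CPM in the *Ifitm6*-led cluster. On day 1 *Odc1* was highest in the *Serpinb2*-led cluster, at 422 CPM. *Srm* was at 48.5 CPM (46.4 to 50.7) and 50.9 CPM (48.9 to 53.1) and the interval of its log2 ratio (-0.02 to 0.16) included 0. Within the *Fcrls*-led and *Ifitm6*-led clusters its differences had opposite signs. *Srm* was 79.9 and 48.5 CPM in the *Fcrls*-led cluster (log2 ratio -0.73, -1.13 to -0.28). In the *Ifitm6*-led cluster it was 14.4 and 30.5 CPM (1.06, 0.49 to 1.70). These levels rest on 51 and 32 UMIs of day 1. The highest *Srm* level of a cluster on day 3 was 86.5 CPM, in the *Rad51ap1*-led cluster. Its leading genes include *Tk1* and *Nusap1*, which act in DNA replication and cell division.

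In fibroblast/FAP-like cells the 2 synthetic enzymes were both lower on day 3. *Odc1* was at 399 CPM (390 to 408) on day 1 and 119 CPM (115 to 123) on day 3. *Srm* was at 530.3 CPM (519.9 to 541) and 159.6 CPM (155 to 165), or 3.32-fold lower, and its level on day 1 was higher than in any other named cell type with at least 50 cells on that day. Fibroblast/FAP-like cells held 79.7% of the *Srm* UMIs of day 1 with 26.5% of all UMIs. The cells of the 2 days came from different clusters, so the ratios compare the *Il1rl1*-led with the *Sfrp2*-led cluster. The 202 myoblast-like cells of day 3 had the highest *Odc1* level of that day, 486 CPM (472 to 500), and the highest *Srm* level, 259.8 CPM (249 to 270.5). They held 25.4% of the *Odc1* UMIs and 27.0% of the *Srm* UMIs of day 3. On day 1 there were only 6 such cells, and no comparison was made.

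In neutrophil-like cells the difference had the other sign. *Odc1* was at 22.0 CPM (18.2 to 26.5) on day 1 and 175 CPM (146 to 208) on day 3, and *Srm* was at 4.88 CPM (3.16 to 7.20) and 36.0 CPM (23.5 to 52.8), from 25 and 26 UMIs. The 259 neutrophil-like cells of day 3 also carried more transcripts of other cell types. All 11 monocyte/macrophage markers and all 10 fibroblast/FAP markers had UMIs on both days, and their sums were 412 and 4194 CPM and 129 and 1531 CPM, whereas the sum of the 10 neutrophil markers was 91235 CPM on day 1 and 28497 CPM on day 3. Of the *Odc1* UMIs of day 3, 91.3% were in the 26 cells with the most. When each cell took the name of its own highest marker score, the log2 ratio was -0.49 for *Odc1* and -0.27 for *Srm*, so the direction depended on how neutrophil-like cells were named. The part of the other cell types' transcripts in the result was not tested.

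*Sat1* (chrX:155213132-155216449, - strand) encodes spermidine/spermine acetyltransferase, which marks polyamines for breakdown or export. It was the most abundant of the 10 genes in monocyte/macrophage-like cells of day 3, and the second after *Arg1* on day 1. Its level was 620 CPM (612 to 627) on day 1 and 803 CPM (795 to 812) on day 3, and the highest value of day 3 was in the *Ifit1bl1*-led cluster, at 1205 CPM, whose leading genes are induced by interferon. In neutrophil-like cells it was 1313 CPM (1282 to 1345) and 738 CPM (676 to 803), beside the lower sum of neutrophil markers on day 3 given above, and in dendritic cell-like cells 615 and 611 CPM. It was lowest in myoblast-like cells, at 49.7 CPM (45.2 to 54.5) on day 3, where *Odc1* and *Srm* were highest.

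*Azin1* (chr15:38487427-38519266, - strand) encodes antizyme inhibitor, which keeps ornithine decarboxylase from being degraded. Of the 10 genes it varied the least between the groups of cell type and day with at least 50 cells, by the ratio of the highest to the lowest level. Its level was higher on day 3 in each of the 4 types compared, at 89.6 and 137 CPM in monocyte/macrophage-like, 64.9 and 157 CPM in neutrophil-like, 70.5 and 119 CPM in dendritic cell-like, and 60.2 and 107 CPM in fibroblast/FAP-like cells. Among all genes tested this was no exception, since the median log2 ratio over all genes was above 0 in each type (0.47, 0.52, 0.27 and 0.30 in the same order).

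*Acod1* (chr14:103046977-103056573, + strand) encodes the enzyme that makes itaconate, and its transcripts were found mainly in neutrophil-like cells. There its level was 3069 CPM (3022 to 3118) on day 1, the highest value of any of the 10 genes in any cell type, and 1188 CPM (1110 to 1271) on day 3, a log2 ratio of -1.37 (-1.47 to -1.27). At 1000 UMIs per cell, since few of these cells had 3000, 76.2% of the neutrophil-like cells of day 1 (74.3 to 78.0) and 58.7% of those of day 3 (52.4 to 64.7) had a UMI of *Acod1*. The same share in fibroblast/FAP-like cells of day 1 was 1.56%, the median depths being 2156 and 27890 UMIs. The neutrophil-like cells held 81.6% of all *Acod1* UMIs of day 1 with 7.21% of all UMIs, and 64.6% of those of day 3 with 0.857%. *Acod1* was lower on day 3 in both neutrophil-like clusters, from 3568 to 1364 CPM in the *Il23a*-led and from 2370.2 to 913 CPM in the *Retnlg*-led cluster. In the same cells the sum of the 10 neutrophil markers was 91235 and 28497 CPM and that of the 11 monocyte/macrophage markers 412 and 4194 CPM, and their part in the difference was not tested. The mean of the per-cell values gave a smaller difference (log2 ratio -0.68), and the ratio stayed past 2-fold under 3 of 9 alternatives. Barcodes with at most 100 UMIs had 279 CPM of *Acod1* on day 1 and 40.8 CPM on day 3.

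In monocyte/macrophage-like cells *Acod1* was at 64.8 CPM (62.3 to 67.3) on day 1 and 8.33 CPM (7.51 to 9.22) on day 3, or 7.76-fold lower. On day 1 this was 2.11% of the neutrophil level, beside 2.16% for the sum of the 10 neutrophil markers, which ranged from 1.03% (*Ly6g*) to 11.4% (*Mxd1*). On day 3 it was 0.701% beside 1.76%. The UMIs lay in few cells, since the 350 cells with the most held 93.5% of them on day 1. With the cells of highest doublet scores left out, the level on day 1 was 27.8 CPM. Between the clusters of day 1 it ranged from 20.4 CPM in the *Ppbp*-led cluster, at 0.664% of the neutrophil level beside 0.802% for the marker sum, to 252 CPM in the 73 cells of the *Fcrls*-led cluster, at 8.21% beside 4.63%. Single neutrophil markers in the *Fcrls*-led cluster were at 3.73% (*S100a8*) to 26.3% (*Ly6g*), with a median of 7.05%. In the *Ifitm6*-led cluster *Acod1* was 169 CPM, at 5.50% beside 7.91% for the marker sum. Whether these transcripts came from the macrophages themselves was not tested.

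**Figure D3:**
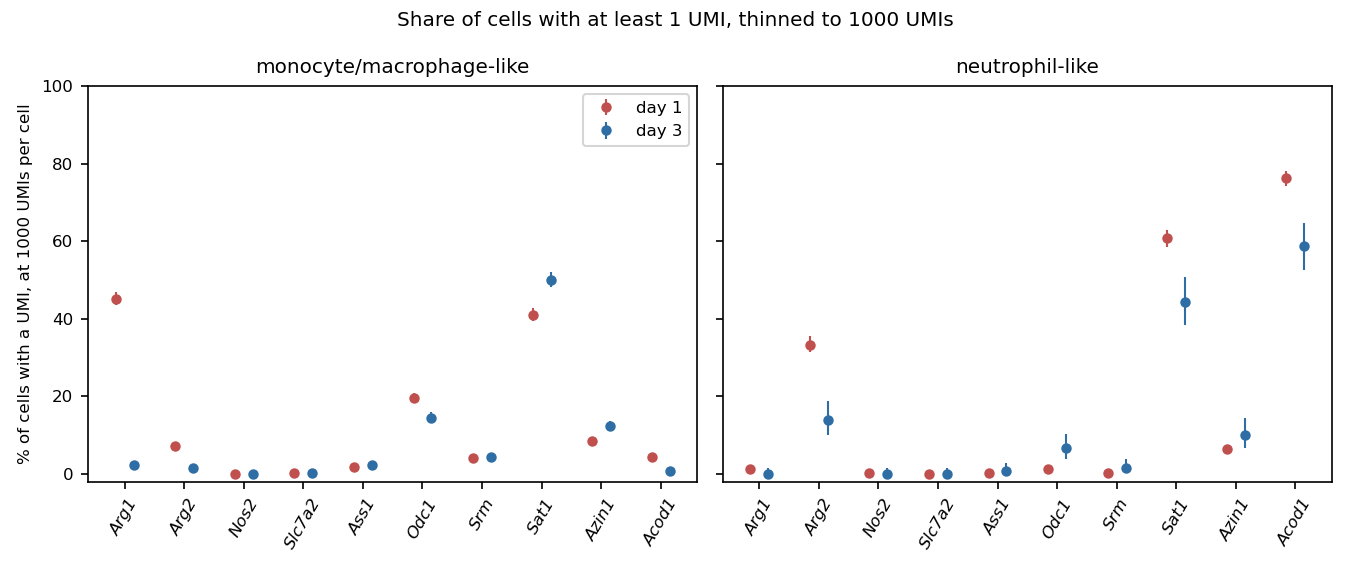
Percent of cells with at least 1 UMI of each gene after thinning each cell to 1000 UMIs, in monocyte/macrophage-like (left) and neutrophil-like cells (right), with Clopper-Pearson 95% CI; red is day 1 and blue day 3. *Arg1* went from 45.1% to 2.38% of the monocyte/macrophage-like cells, and *Acod1* from 76.2% to 58.7% of the neutrophil-like cells.

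The genes can also be compared within a cell. At 3000 UMIs per cell, *Odc1* had a UMI in 43.3% (41.1 to 45.5) of the 1955 monocyte/macrophage-like cells of day 1 with *Arg1* and in 31.8% of those without. On day 3 it had one in 42.9% (35.1 to 50.9) of 161 cells with *Arg1* and in 30.5% of those without (28.7 to 32.3), although at 1000 UMIs per cell the intervals of day 3 overlapped. On day 1 *Acod1* had a UMI in 8.85% (7.63 to 10.2) of the cells with *Arg1* and 9.43% of those without, and *Arg2* in 19.2% (17.5 to 21.0) and 19.6%, and in both cases the intervals overlapped. On day 3 only 1 cell had both *Arg1* and *Acod1* and 1 both *Arg1* and *Arg2*. *Arg2* was found in 0.621% (0.0157 to 3.41) of the cells with *Arg1* and 4.28% (3.54 to 5.13) of those without. At 1000 UMIs per cell the intervals for *Arg2* on day 3 overlapped (0 to 5.36 and 1.16 to 2.14). Without thinning they overlapped too (8.21 to 14.3 and 11.8 to 14.6), and 48 cells had both arginase genes. With 3000 UMIs per cell, *Acod1* was found more often in cells with *Arg2* (14.7%, 12.1 to 17.7) than in those without (7.74%, 6.76 to 8.81) on day 1. With 1000 UMIs per cell these intervals overlapped (3.64 to 10.0 and 3.42 to 4.81). On day 3 both shares at 3000 UMIs per cell were 1.77%, and 2 cells had both genes. On day 1 *Arg1* and *Nos2* were found together in 5 cells, of 7 cells with *Nos2*. *Nos2* had a UMI in 0.256% (0.0831 to 0.596) of the cells with *Arg1* and 0.142% (0.0172 to 0.511) of those without, and these intervals overlapped. These shares describe the cells of 1 library each, and cells are not replicates.

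Day 3 was then compared with day 1 over the set, counting a gene as lower or higher when it differed at least 2-fold and had at least 50 UMIs over both days. In monocyte/macrophage-like cells all 10 genes passed the filter, and 4 were lower on day 3 (*Arg1*, *Arg2*, *Nos2* and *Acod1*), beside 5.15% of the 11636 genes tested. *Nos2* passed with 46 UMIs on day 1 and 4 on day 3. It met the minimum only through the day on which it was higher, so its call is tied to the filter. None of the 10 was higher, beside 28.8% of all genes. The median log2 ratio was -0.49 over the 10 genes and 0.47 over all genes. Relative to that median 5 genes were lower, *Odc1* being added with -1.19, beside 10.1% of all genes, and the signs of *Ass1* (-0.28), *Srm* (-0.40) and *Sat1* (-0.10) turned negative.

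Among neutrophil-like cells 7 of the 10 genes passed the filter. On day 3, 3 were lower (*Arg1*, *Arg2* and *Acod1*), beside 8.27% of all genes, and 3 were higher (*Odc1*, *Srm* and *Azin1*), beside 34.3%. Relative to the median of all genes, *Sat1* (-1.35) was added to the lower genes and *Azin1* (0.75) was no longer 2-fold higher. By that measure 18.2% of all genes were lower and 19.7% higher. In dendritic cell-like cells 8 passed, of which 3 were lower (*Arg1*, *Arg2* and *Acod1*), beside 3.63% of all genes, and 0 were higher, beside 15.5%. With *Srm* (-1.03) added, 4 were lower relative to the median, beside 5.92% of all genes. In fibroblast/FAP-like cells 9 passed, of which 5 were lower (*Arg1*, *Arg2*, *Odc1*, *Srm* and *Acod1*), beside 7.17% of all genes, and 1 was higher (*Slc7a2*), beside 23.4%. The same genes were called relative to the median, beside 12.3% of all genes lower and 16.8% higher. *Arg1*, *Arg2* and *Acod1* were thus lower on day 3 in each of the 4 cell types as clustered and named here. Some of these calls met the minimum of 50 UMIs only through day 1, so they too are tied to the filter. These were *Arg1* in neutrophil-like cells (123 and 3 UMIs) and *Arg2* in fibroblast/FAP-like cells (157 and 32). In dendritic cell-like cells they were *Arg2* (220 and 24) and *Acod1* (314 and 39). On day 1 *Acod1* in fibroblast/FAP-like cells was at 0.834% of its neutrophil level, beside 0.734% for the sum of neutrophil markers. In dendritic cell-like cells it was at 1.90% beside 1.55%. *Arg2* was at 1.76% and 8.64% in these types. *Arg1* in neutrophil-like cells was at 1.49% of its monocyte/macrophage level, beside 3.88% for that type's marker sum. On day 3 it rests on 3 UMIs. The part of such transcripts in these differences was not tested. For *Arg1* and *Arg2* the ratio stayed past 2-fold in each type under all alternatives that gave one. For *Acod1* it did so under 3 of 9 in neutrophil-like and 7 of 9 in dendritic cell-like cells, where it turned to 0.67 when counts were log-normalized before clustering. *Odc1* and *Srm* differed in sign between neutrophil-like and fibroblast/FAP-like cells, which was not tested.

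**Figure D4:**
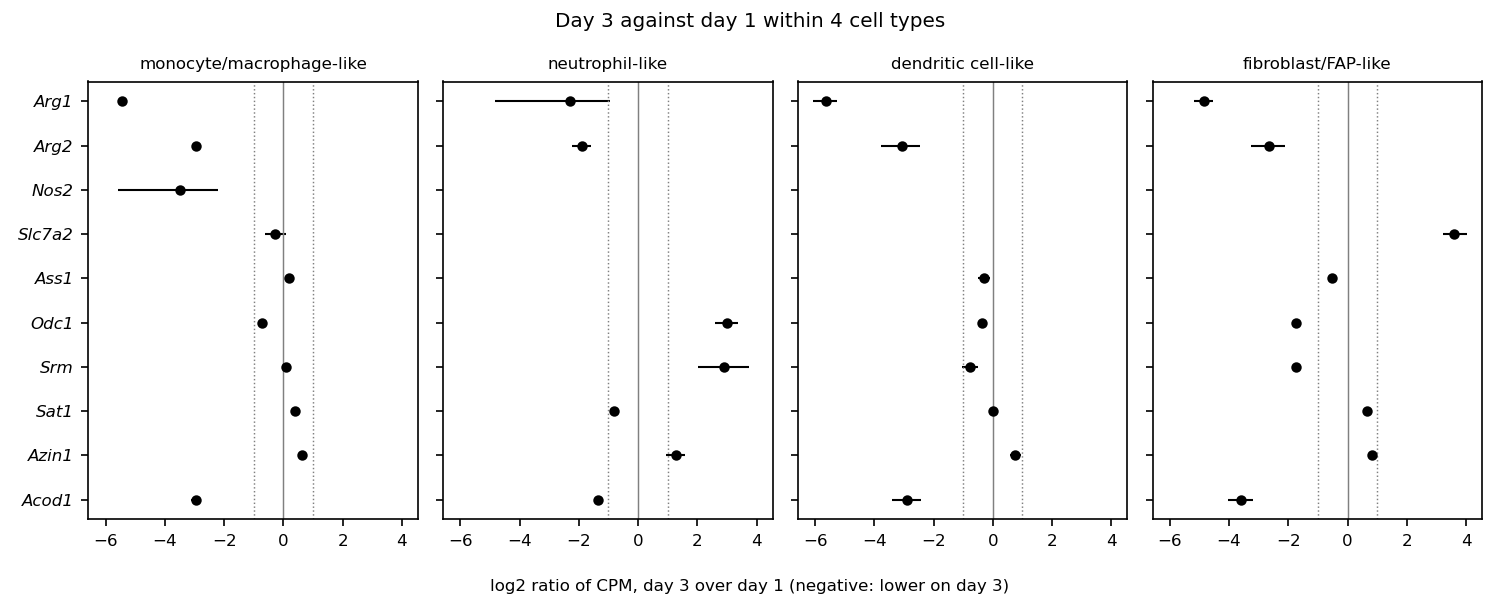
Log2 ratio of CPM of day 3 over day 1 for each gene with at least 50 UMIs in 4 cell types, with exact binomial 95% CI; the solid line is no difference and the dotted lines are 2-fold. *Arg1*, *Arg2* and *Acod1* lie left of the 2-fold line in all 4 panels (*Acod1* in neutrophil-like cells under 3 of 9 alternatives, and in dendritic cell-like cells at 0.67 with log-normalized counts), *Odc1* and *Srm* lie right of it in neutrophil-like cells (at -0.49 and -0.27 with each cell named by its highest marker score) and left of it in fibroblast/FAP-like cells, and *Slc7a2* stands apart at 3.61 in fibroblast/FAP-like cells.

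Other genes of the same pathways were read from a list of 53. In monocyte/macrophage-like cells 47 of them passed the filter, of which 4 were at least 2-fold lower on day 3 (8.51%, beside 5.15% of all genes) and 13 higher (27.7%, beside 28.8%), and their median log2 ratio was 0.34, beside 0.47 for all genes. Of the 4 transport genes, 1 was lower: *Slc7a11*, whose product imports cystine in exchange for glutamate, at 691 and 58.5 CPM (log2 ratio -3.56). Of 6 genes of nitric oxide synthesis, 2 were lower and 2 higher. *Gch1*, which starts the synthesis of the cofactor tetrahydrobiopterin, was at 166 and 66.0 CPM, and *Nos3*, the endothelial synthase, at 1.79 and 0.784 CPM. The higher genes were *Qdpr* (log2 ratio 1.85), which regenerates that cofactor, and *Ddah2* (1.24), assigned to the clearance of methylated arginines.

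Of 6 further genes of arginine and ornithine use, 2 were higher and 0 lower. These were *Gatm*, at 6.58 and 69.0 CPM (log2 ratio 3.39), and *Gamt*, at 3.89 and 38.7 CPM (3.31), which encode the pair of enzymes that make creatine from arginine and glycine. Of 10 genes of polyamine synthesis, antizymes and hypusine, *Mtap* (1.45) and *Azin2* (1.79) were higher and 0 were lower, so that most of this group was within 2-fold, as *Odc1*, *Srm* and *Azin1* were.

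Polyamine breakdown differed by enzyme. *Smox*, the spermine oxidase, was at 198 and 50.5 CPM (log2 ratio -1.97), whereas *Paox*, the oxidase of acetylated polyamines, was at 6.46 and 50.2 CPM (2.96), and *Sat2* and the lysosomal transporter gene *Atp13a2* were also higher (2.83 and 1.73). Of 16 genes of itaconate precursors, targets and degradation, 4 were higher (*Idh2*, *Clybl*, *Suclg2* and *Keap1*) and 0 lower. *Clybl*, which acts on the breakdown product of itaconate, had the highest log2 ratio of the 4, at 2.25. Among neutrophil-like cells 26 of the 53 passed, with 4 lower (15.4%, beside 8.27% of all genes) and 10 higher (38.5%, beside 34.3%). In dendritic cell-like cells 2 of 40 were lower (5%, beside 3.63%) and 6 higher (15%, beside 15.5%), and in fibroblast/FAP-like cells 7 of 49 were lower (14.3%, beside 7.17%) and 9 higher (18.4%, beside 23.4%).

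**Figure D5:**
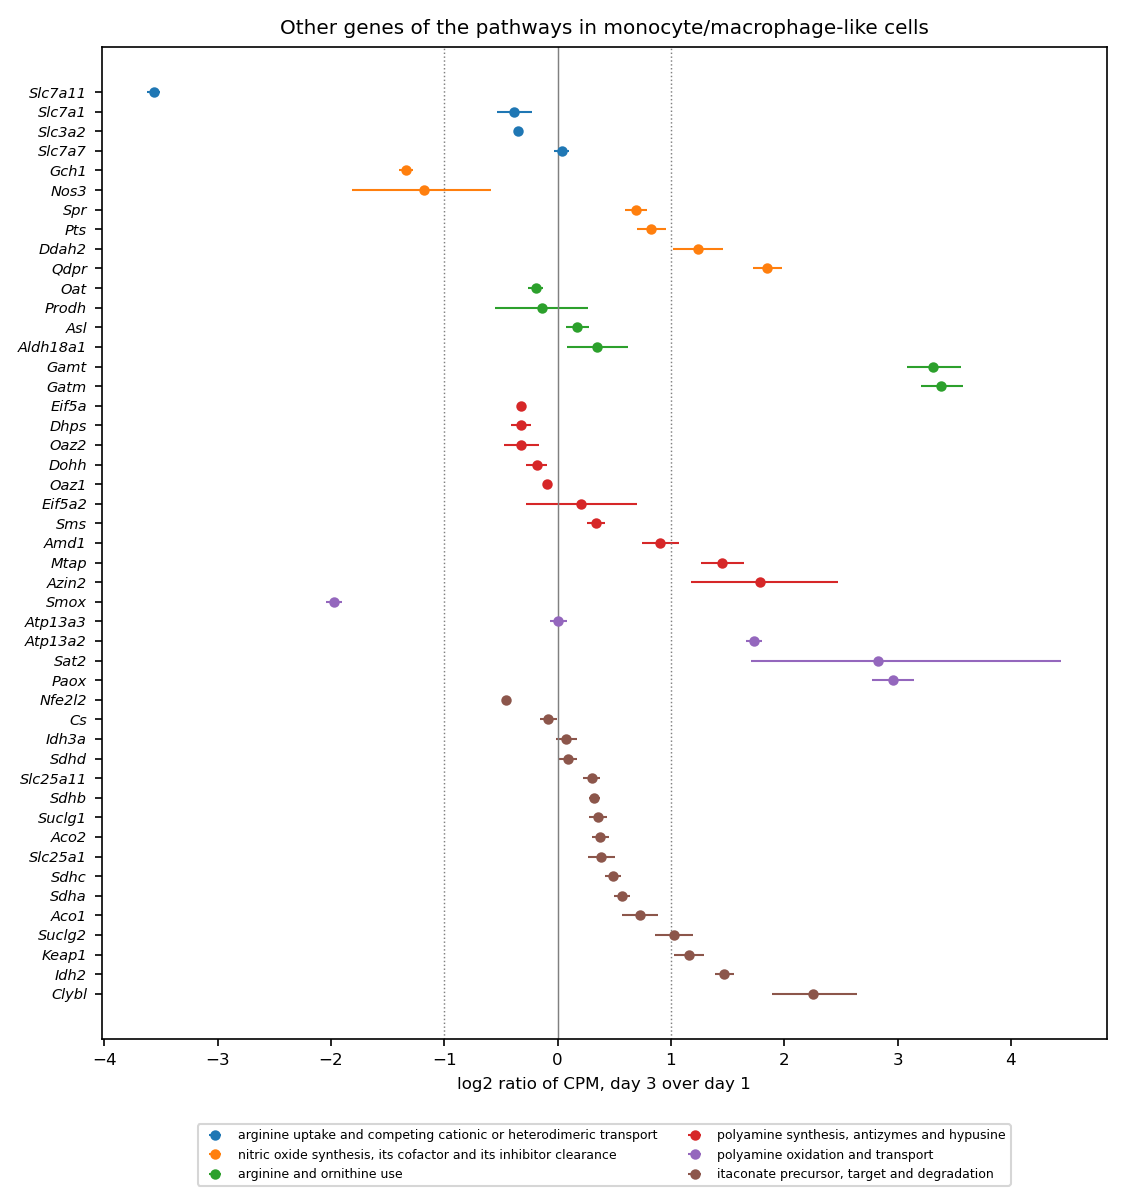
Log2 ratio of CPM of day 3 over day 1 in monocyte/macrophage-like cells for the 47 other pathway genes with at least 50 UMIs, colored by role, with exact binomial 95% CI; dotted lines are 2-fold. *Slc7a11* (-3.56) and *Smox* (-1.97) lie farthest to the left, and *Gatm* (3.39), *Gamt* (3.31) and *Paox* (2.96) farthest to the right.

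Finally, genes with a similar pattern over the 21 groups of cluster and day were listed by Pearson correlation of log2(CPM + 1) among 10369 genes, as a description, since the groups share 2 libraries and differ in depth. The 5 nearest to *Arg1* were *Ppbp* (r = 0.956), *Ccl24* (0.933), *Cers2* (0.902), *Ccl6* (0.839) and *Por* (0.836), and *Ppbp*, *Ccl24* and *Ccl6* encode chemokines. Those nearest to *Acod1* were *Hcar2* (0.983), *Hdc* (0.982), *S100a9* (0.977), *Il1f9* (0.967) and *4930581F22Rik* (0.961), of which *Hdc* and *S100a9* are among the markers by which neutrophil-like cells were named. *Odc1* was nearest to *Psmd3* (0.967), *Noc2l* (0.948), *Ciao2b* (0.944), *Dohh* (0.940) and *Eif3b* (0.939). For *Nos2*, with 92 UMIs in all, they were *Hbb-bs* (0.880), *Cldn5* (0.842), *Esam* (0.803), *Notch1* (0.801) and *Ipmk* (0.792), which rests largely on the *Gpihbp1*-led cluster.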

How the data were processed

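The deposited files hold raw UMI counts of each gene in every listed barcode, made by the authors per the submitters' processing notes with Cell Ranger 5.0.0 on mm10 (the headers of both matrices name Cell Ranger 4), without normalization or a call of cells. The labels give the same 3-prime kit for both days, but the barcode lists differ (737280 and 6794880 barcodes), so that chemistry or processing may differ with the day.

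The 7367 and 6640 barcodes with the most UMIs were taken, as many as the study counted, and cells with fewer than 1000 UMIs, fewer than 200 genes or over 7.5% mitochondrial UMIs were left out (517 and 2013 cells, or 7.02% and 30.3%, exceeded the last limit). Doublets were kept, since Scrublet (scanpy 1.11.5) marked 2 and 0 cells and so had not worked. An alternative removed the 363 and 171 cells of highest score. Counts were normalized with SCTransform (Seurat 5.3.0, sctransform 0.4.2, R 4.3.3) on 3000 variable features, less naming markers, members and pathway genes, and clustered on 10 PCs at a resolution of 0.8 into 15 clusters. A cluster took the name of the marker list with the highest score, when at least 3 markers were detected in at least 10% of its cells, no other list had more markers among its 10 leading genes, and the next score was at least 0.05 lower. This scoring rule was set after the clusters had been seen.

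CPM, log2 ratios (0.5 added to each count) and shares were computed in Python 3.11.15 (numpy 2.4.6, scipy 1.17.1, pandas 2.3.3), thinning cells to 3000 or 1000 UMIs. The limit for a count of 0 is 3 counts. Ambient RNA, from barcodes with at most 100 UMIs, made up 1.49% and 1.78% of the UMIs of monocyte/macrophage-like cells. The estimate used *Col1a1*, *Col1a2*, *Col3a1* and *Dcn*. On simulated counts of 11636 genes for the monocyte/macrophage-like ratio, 200 of them changed, the interval lay on the correct side of 0 for 100% of the changed genes and 95.4% of all intervals held the true ratio. The counts were drawn as Poisson, the model from which the interval is made, without spread among cells, mice or libraries. They therefore check the computation alone.

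An IRF and a kappaB motif were also searched at first, in the bases before the RefSeq starts, without a match in the 4 promoters, and are not counted among the 4 motifs. Named are all 10 members, the 4 highest and 4 lowest ratios among pathway genes in monocyte/macrophage-like cells, those at least 2-fold different where a group is described, the 5 genes nearest to each of *Arg1*, *Nos2*, *Odc1* and *Acod1*, and the leading genes of clusters. The members and lists were chosen with earlier results of these data known. Alternatives concerned which barcodes are cells, low quality, mitochondrial UMIs, doublets, normalization, resolution, naming, selection of macrophages, summary, ambient RNA, scaling and the count minimum.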

Additional observations from a re-analysis of the deposited data

Results flagged for a closer look

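The polyamine synthesis genes *Odc1* and *Srm* had opposite differences between the days in different cell types. For *Odc1* the log2 ratio of day 3 over day 1 was 2.99 in neutrophil-like and -1.74 in fibroblast/FAP-like cells, and for *Srm* it was 2.89 and -1.73. With 1 library per day the difference between the cell types was not tested. The neutrophil-like cells of day 3 numbered 259 and also held more transcripts of macrophage and fibroblast markers than those of day 1, and under the name of the highest marker score of each cell the ratios in neutrophil-like cells were -0.49 and -0.27. The part of those transcripts in the difference was not tested.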

How the results depend on the processing

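In monocyte/macrophage-like cells the count of genes at least 2-fold lower on day 3 was between 3 and 5 under the 13 alternatives, and the count of higher genes was 0 in each. Under alternatives 210 of 700 levels in CPM, 125 of 160 shares of cells and 48 of 60 shares of UMIs moved by more than their counting interval. Of 335 log2 ratios of single genes under alternatives, 234 moved by less than their counting interval, 98 moved by more, and 3 of those called reversed. Reversed were *Odc1* (-0.49) and *Srm* (-0.27) in neutrophil-like cells, when each cell took the name of its highest marker score, and *Acod1* in dendritic cell-like cells (0.67), when counts were log-normalized before clustering, which left 123 and 237 cells under that name. The cause was not tested. *Arg1*, *Arg2* and *Nos2* stayed at least 2-fold lower in monocyte/macrophage-like cells under all 11 alternatives that gave a ratio, and *Acod1* too, with -3.54 to -1.99. The neutrophil-like ratio of *Acod1* ranged from -1.89 to -0.68 and stayed past 2-fold under 3 of 9 alternatives. A stricter call of cells, by a share of a high percentile of UMIs, left 115 and 0 neutrophil-like cells and gave no ratio there, and leaving out cells with fewer than 200 genes per 1000 UMIs left 0 and 56 dendritic cell-like cells. No paired analysis was possible because each day has 1 library from different mice. Depth limits *Nos2* throughout, and *Srm* and *Arg1* in neutrophil-like cells of day 3.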
